A study of Mus musculus with 10 samples.

Results

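Connexins and the transporters, channels and pump subunits that move potassium and chloride were followed in supporting cells of the mouse utricle. The set held 9 of the 48709 genes in the tables, taken by symbol, with earlier results of these data known. It comprised the connexins Gja1, Gjb2, Gjb6 and Gjc1, the potassium channel Kcnj10, the cotransporter Slc12a2, the anion exchanger Slc26a4, the pump subunit Atp1b1 and the glutamate transporter Slc1a3. The utricle is a balance organ of the inner ear, and its hair cells are surrounded by supporting cells. Utricles from mice aged 21 postnatal days, whose supporting cells carried an Lfng-EGFP reporter, were cultured, and GFP-positive cells were sorted for RNA sequencing. The compound TRULI inhibits the Lats kinases of the Hippo pathway. The 4 groups were DMSO_d5 (0.1% DMSO for 5 days, 3 libraries), TRULI_d5 (10 µM TRULI in 0.1% DMSO for 5 days, 3 libraries), DMSO_d10 (DMSO for 5 days and withdrawal for 5 days, 2 libraries) and TRULI_d10 (TRULI for 5 days and withdrawal for 5 days, 2 libraries). Every group was a whole-organ culture that carried the reporter, and the sort took the cells in which the Lfng reporter was bright.

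Supporting cells are coupled by gap junctions, channels made of connexins that let ions and small molecules pass from cell to cell. Around hair cells they are known to take up potassium and glutamate that sensory activity releases, by inwardly rectifying potassium channels, the sodium-potassium pump, sodium-driven cotransporters and glutamate transporters. Loss of GJB2, GJB6, SLC26A4 or KCNJ10 function is known to impair hearing, in some cases together with balance.

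The condition of 4 libraries differed between 2 sources. The tables of TRULI_d5 replicates 1 and 2 were deposited under the names DMSO_d10 replicates 1 and 2, and those of DMSO_d10 replicates 1 and 2 under the names TRULI_d5 replicates 2 and 3. TRULI_d5 replicate 3 was deposited as TRULI_d5 replicate 1, so its condition was the same in both, and 6 libraries kept their condition. Groups below follow the sample labels unless the deposited name is stated, and each comparison is given both ways, since nothing in the values was used to choose between them. The libraries held 2463865 to 6255133 counts, and 3 counts corresponded to 0.479 to 1.16 CPM (counts scaled to a common library size by TMM over the 10 libraries). The mitochondrial ribosomal RNA mt-Rnr2 took 1.45% to 2.53% of counts in the 4 libraries deposited as day 10 and 13.0% to 26.4% in the other 6. Lfng, the gene behind the sort, stood at 504 to 544 CPM in DMSO_d5, at 294 to 526 CPM in the 3 libraries deposited as TRULI_d5 and at 21.6 to 105 CPM in the 4 deposited as day 10. Of the 8 supporting-cell markers, Sox9 (472 to 928 CPM), Jag1, Tectb and Otog were present in every library, and Hes5 was at 0 in 3. Sox2 stood at 32.8 to 48.2 CPM in the 4 libraries deposited as day 10 and at 52.1 to 86.5 CPM in the other 6, and by deposited name it was lower in TRULI_d10 than in TRULI_d5 (log2 fold change -1.16, SE 0.32, adjusted p = 0.0446, edgeR). Cdkn1b stood at 0.366 to 3.08 CPM in the same 4 libraries and at 14.5 to 25.2 CPM in the other 6. Summed hair-cell markers ranged from 312 to 1325 CPM. Among genes of ion-transporting cells outside the sensory patch, the dark-cell genes Kcne1 and Bsnd were at 0 in all 10 libraries, while Kcnq1, the third gene of that list, stood at 6.23 to 58.2 CPM, and the 3 markers of mitochondria-rich cells summed to at most 2.90 CPM. The part of these differences in the results below was not tested. In sorted bulk RNA, fewer cells of a type and less RNA per cell cannot be told apart.

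The upstream sequences of the 4 genes that passed the test in at least 1 comparison are shown, as the genes on which the calls rest. RefSeq (GRCm38.p6) gave a window for 7 of the 9 genes, and none was found for Gjc1 and Slc12a2. Each sequence is the 250 bases before the annotated start, written 5′ to 3′ on the gene's strand, and capitals mark the GC box GGGCGG or the box TATAAA on either strand.
Slc1a3 (chr15:8710808-8711057, minus strand): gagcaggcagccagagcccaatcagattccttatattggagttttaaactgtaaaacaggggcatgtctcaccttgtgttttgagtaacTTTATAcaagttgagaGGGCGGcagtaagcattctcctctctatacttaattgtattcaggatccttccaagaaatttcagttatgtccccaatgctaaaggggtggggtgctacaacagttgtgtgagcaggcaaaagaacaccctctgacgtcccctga
Kcnj10 (chr1:172340960-172341209, plus strand): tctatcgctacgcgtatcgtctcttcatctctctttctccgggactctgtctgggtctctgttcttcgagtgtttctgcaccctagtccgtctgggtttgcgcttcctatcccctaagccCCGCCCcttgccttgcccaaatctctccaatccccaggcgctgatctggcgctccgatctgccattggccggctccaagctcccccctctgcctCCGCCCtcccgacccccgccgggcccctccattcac
Slc26a4 (chr12:31559985-31560234, minus strand): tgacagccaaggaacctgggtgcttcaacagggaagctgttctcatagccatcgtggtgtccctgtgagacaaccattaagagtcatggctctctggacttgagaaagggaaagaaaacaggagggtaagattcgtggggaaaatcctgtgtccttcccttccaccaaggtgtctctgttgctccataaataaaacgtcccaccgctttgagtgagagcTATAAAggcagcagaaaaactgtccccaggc
Atp1b1 (chr1:164458356-164458605, minus strand): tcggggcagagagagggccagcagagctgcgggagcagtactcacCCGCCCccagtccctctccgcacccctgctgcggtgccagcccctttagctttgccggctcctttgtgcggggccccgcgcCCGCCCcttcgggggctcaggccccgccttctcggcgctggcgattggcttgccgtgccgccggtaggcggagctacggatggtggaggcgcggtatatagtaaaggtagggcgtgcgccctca
The search also covered GGAATG, the core letters bound by Tead factors, on both strands. It occurred in 0 of the 7 windows, against 12.6% of all 32851 promoter windows of this length. GGGCGG or its complement occurred in 4 of 7 (Atp1b1, Kcnj10, Gjb2 and Slc1a3), against 32.7% of all windows. TATAAA or its complement occurred in 2 of 7 (Slc26a4 and Slc1a3), against 12.4%. The Gjb2 window had 69.2% G and C bases and the Gjb6 window 56.8%, although the genes lie 18600 bases apart. No match says only that these letters were not in the window.

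All 9 genes passed the filter on low counts in each comparison by sample label and by deposited name. Their levels per transcript length, as FPKM (fragments per kilobase, scaled to the protein-coding total), fell into 3 tiers. Slc1a3, a sodium-driven glutamate transporter, had the highest median (441 FPKM, range 161 to 1335). Slc1a3 was above Gjb6 in 6 of the 10 libraries and below Gjb6 in those deposited as day 10. Gjb6 (median 261, range 145 to 313), Atp1b1 (257, range 144 to 435) and Gjb2 (245, range 122 to 414) followed, and their ranges overlapped. Gjb6 was above Atp1b1 in 5 of the 10 libraries and Atp1b1 above Gjb2 in 5, so these neighbors had no fixed order. In every library the Gjb2 level was above that of Slc26a4. Slc26a4 (median 53.7, range 23.0 to 92.6) and Kcnj10 (52.9, range 6.65 to 110) overlapped each other and Slc12a2 (24.2, range 17.8 to 28.7). Gjc1 (2.33, range 0 to 11.3) and Gja1 (1.54, range 0.407 to 3.22) formed the lowest tier, with Slc12a2 above Gjc1 in all 10 libraries. Slc12a2 varied least between libraries, by 2.07 times in CPM from lowest to highest, and Kcnj10 varied by 11.9 times. At most 1.53% of the 50-base words in a member's transcripts (Kcnj10) also occurred in another gene.

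**Figure D1:**
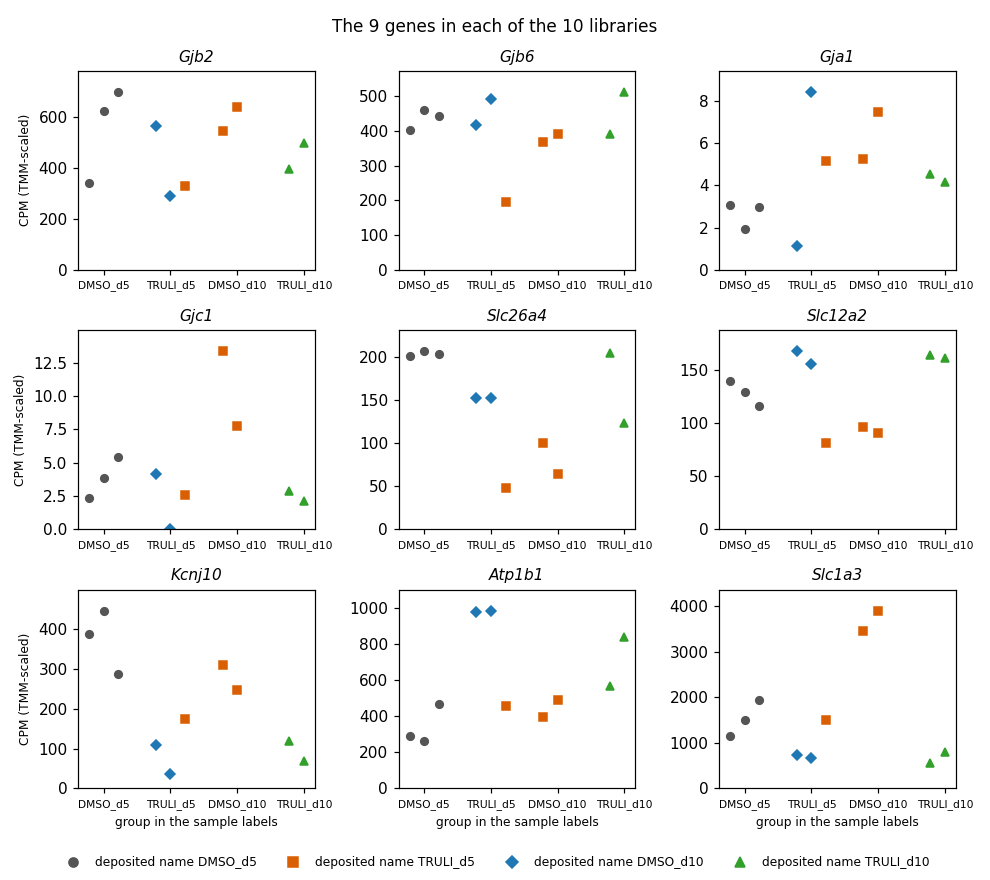
Each panel plots 1 gene in the 10 libraries, with CPM on the vertical axis from 0 and the group in the sample labels on the horizontal axis, where each point is 1 library and its shape and color give the deposited name. The 2 TRULI_d5 libraries deposited as DMSO_d10 lie with TRULI_d10 for Kcnj10, Slc12a2 and Slc1a3, and the third lies below every DMSO_d5 library for Slc26a4, Slc12a2 and Kcnj10.

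Connexin transcripts came almost wholly from 2 neighboring genes on chromosome 14, Gjb2 (ENSMUSG00000046352, chr14:57098600-57104702, minus strand) and Gjb6 (ENSMUSG00000040055, chr14:57123303-57133611, minus strand). They encode connexin 26 and connexin 30, which are known to form channels together in the inner ear. Together they held 96.9% to 99.3% of the FPKM of all connexins listed. Gjb2 stood at 340, 623 and 696 CPM in DMSO_d5, at 562, 289 and 329 CPM in TRULI_d5, at 544 and 639 CPM in DMSO_d10 and at 395 and 495 CPM in TRULI_d10. By sample label the groups overlapped at 5 days, and both TRULI_d10 libraries were below both DMSO_d10 libraries (log2 fold change -0.47, SE 0.33). By deposited name DMSO_d10 stood at 562 and 289 CPM, on both sides of TRULI_d10, and the log2 fold change was 0.06 (SE 0.41). Gjb6 stood at 404, 459 and 444 CPM in DMSO_d5, at 416, 493 and 195 CPM in TRULI_d5, at 367 and 392 CPM in DMSO_d10 and at 392 and 512 CPM in TRULI_d10. A single library, TRULI_d5 replicate 3, lay far below the rest for Gjb6. Neither gene passed the test in any of the 4 comparisons under either grouping, and the largest log2 fold change of either was -0.51 (SE 0.41), for Gjb2 in TRULI_d5 against DMSO_d5.

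By sample label, the balance between the pair differed between libraries of a group beyond counting error at 5 days. In both day-10 groups by label the counting intervals of the 2 libraries overlapped. The ratio of Gjb6 to Gjb2 FPKM was 1.38 (95% exact binomial interval 1.26 to 1.52), 0.858 (0.801 to 0.919) and 0.745 (0.702 to 0.791) in the 3 DMSO_d5 libraries. It was 0.861, 1.98 and 0.691 in TRULI_d5, 0.786 and 0.713 in DMSO_d10, and 1.15 and 1.20 in TRULI_d10. Replicates of 1 group thus lay on both sides of equality at 5 days. Among the 3 libraries deposited as TRULI_d5 the ratio was 0.691 to 0.786. The 2 libraries deposited as DMSO_d10 stood at 0.861 (0.818 to 0.906) and 1.98 (1.81 to 2.16), on both sides of equality and with intervals apart. These intervals cover counting error only.

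**Figure D2:**
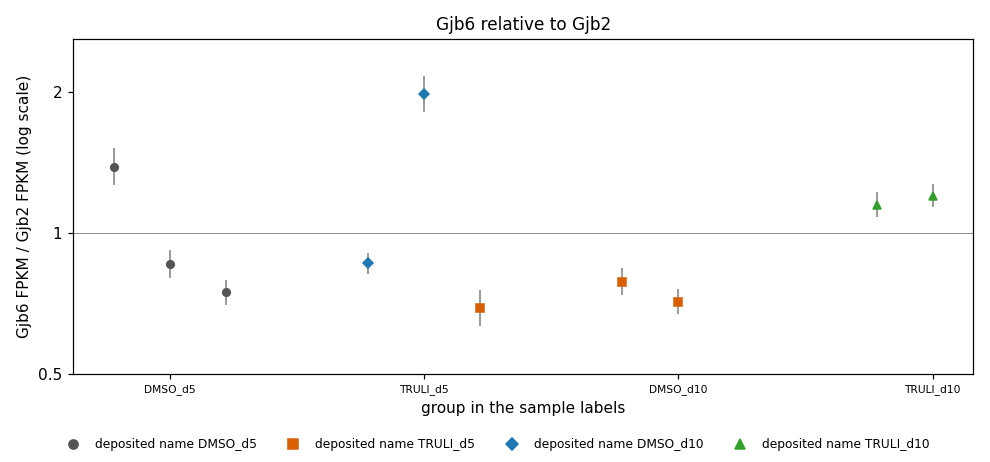
The ratio of Gjb6 to Gjb2 FPKM is plotted on a log scale for each of the 10 libraries, by group in the sample labels, with 95% counting intervals as bars and the deposited name as shape and color. Values run from 0.691 to 1.98, and the line marks equal levels.

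The other connexins were scarce. Gja1 (ENSMUSG00000050953, chr10:56377330-56402513), which encodes the connexin 43 of glia and heart, was counted 6 to 33 times per library. Gjc1 (ENSMUSG00000034520, chr11:102799579-102819700), which encodes connexin 45, was counted 0 to 56 times, and its 1 count of 0, in TRULI_d5 replicate 2, allows up to 1.10 CPM. Gjc1 stood at 13.4 and 7.73 CPM in DMSO_d10 and at no more than 5.43 CPM in the other 8 libraries, but its change in TRULI_d10 against DMSO_d10 (log2 fold change -2.13, SE 0.78, adjusted p = 0.149, edgeR) did not pass the test. Of 19 further connexin and pannexin genes, 7 were at 0 in every library and 10 exceeded 3 counts in none. The best-measured were Panx1, Panx2 and Gjb1. Panx1, a large-pore channel, stood at 5.19 to 25.7 CPM in DMSO_d5 and at 0.957 and 0 CPM in the libraries deposited as DMSO_d10.

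Between TRULI_d5 and DMSO_d5 by sample label, the question was how the compound's presence changed these genes. None of the 9 passed the test (edgeR quasi-likelihood, with an adjusted p below 0.05 by Benjamini-Hochberg and a log2 fold change larger than 1 in size), and 1 of 10580 protein-coding genes did (0.00945%). At an unadjusted p under 0.05 there were 1450 such genes. Kcnj10 had the largest difference, -1.81 on the log2 scale (SE 0.54, adjusted p = 0.323), with all 3 treated libraries below the control libraries, and it passed in 3 of 12 alternatives, DESeq2 among them. Atp1b1 differed by 1.21 (SE 0.42, adjusted p = 0.332). The mt-Rnr2 share was low in TRULI_d5 replicates 1 and 2 and high in replicate 3 and in all DMSO_d5 libraries. Without TRULI_d5 replicate 3 the comparison held the same libraries as DMSO_d10 against DMSO_d5 by deposited name, and 3 of the 9 then passed, Kcnj10 and Slc1a3 lower and Atp1b1 higher, in a fit where 18.7% of 10810 genes did. By deposited name, 1 of the 9 passed, Slc26a4, where 3.09% of 10984 genes did.

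Slc26a4 (ENSMUSG00000020651, chr12:31519827-31559969, minus strand) encodes pendrin, which exchanges chloride for bicarbonate and iodide and is best known from epithelium next to the sensory patches. It stood at 201, 207 and 204 CPM in DMSO_d5, at 152, 153 and 47.3 CPM in TRULI_d5, at 100 and 64.1 CPM in DMSO_d10 and at 205 and 124 CPM in TRULI_d10. The 3 libraries deposited as TRULI_d5 were the lowest of the 10. By deposited name Slc26a4 was lower in TRULI_d5 than in DMSO_d5 by 2.84 times (log2 fold change -1.50, SE 0.28, adjusted p = 0.0167, edgeR, n = 3 and 3). Adjusted p over the 9 alternatives ranged from 3.06e-05 to 0.0880, and it was lost without DMSO_d5 replicate 2 or without DMSO_d5 replicate 3. By sample label the log2 fold change was -0.83 (SE 0.44, adjusted p = 0.419), with no overlap between the groups. Summed hair-cell markers were 403 to 1122 CPM in the libraries deposited as TRULI_d5 and 312 to 533 CPM in DMSO_d5, and their part in the result was not tested.

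Between TRULI_d10 and DMSO_d10 by sample label, which asked what persisted after withdrawal, 1 of the 9 passed the test, where 2.05% of 11469 genes did. Slc1a3 (ENSMUSG00000005360, chr15:8634124-8710764, minus strand) encodes the glutamate transporter GLAST of glia and supporting cells. It stood at 558 and 791 CPM in TRULI_d10 and at 3448 and 3890 CPM in DMSO_d10, with a wide gap between the groups. The difference was 5.67 times (log2 fold change -2.50, SE 0.37, adjusted p = 0.0327, edgeR, n = 2 and 2). Without DMSO_d10 replicate 1 or without DMSO_d10 replicate 2 it did not pass (highest adjusted p 0.0758), nor with all 10 libraries in one fit. By deposited name DMSO_d10 stood at 735 and 672 CPM, between the TRULI_d10 libraries, and the log2 fold change was -0.07 (SE 0.34). In that grouping 0% of 10845 genes passed in edgeR, while 490 had an unadjusted p under 0.05. By label Lfng was lower in TRULI_d10 as well (log2 fold change -2.32, SE 0.44, adjusted p = 0.0463, edgeR), and the 4 glial markers summed to 1538 and 1867 CPM there, beside 376 and 717 CPM in DMSO_d10. Their part in the result was not tested. By label the libraries of the 2 groups also differed in mt-Rnr2 share without overlap, so that share and the treatment cannot be told apart; by deposited name both groups had the low share.

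Kcnj10 (ENSMUSG00000044708, chr1:172341210-172374085, plus strand) encodes Kir4.1, the inwardly rectifying channel by which glia and supporting cells pass potassium. It stood at 389, 446 and 287 CPM in DMSO_d5 and at 108, 37.4 and 175 CPM in TRULI_d5. After withdrawal it stood at 310 and 249 CPM in DMSO_d10 and at 119 and 68.0 CPM in TRULI_d10. The treated libraries were below the control libraries of the same day by label, yet the withdrawal difference (log2 fold change -1.64, SE 0.40, adjusted p = 0.0724) missed the threshold in edgeR. It passed in 5 of the 10 alternatives by label, DESeq2 among them, and adjusted p ranged from 0.000444 to 0.443. By deposited name the 4 day-10 libraries were the 4 lowest, and the treatment difference at day 10 was 0.36 (SE 0.59). Its partner subunit Kcnj16 (Kir5.1) stood at 248 to 392 CPM in DMSO_d5 and at 104 to 198 CPM in the other 7 libraries, and by deposited name it was lower in TRULI_d5 than in DMSO_d5 (log2 fold change -1.19, adjusted p = 0.0297, edgeR). The ratio of Kcnj10 to Kcnj16 FPKM was 0.198 to 0.521 in the 4 libraries deposited as day 10 and 0.480 to 1.31 in the other 6.

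The comparison of DMSO_d10 with DMSO_d5 addressed the further days in culture, and it shares its libraries with the comparisons above. By sample label Slc1a3 was higher in DMSO_d10 (log2 fold change 1.26, SE 0.28, adjusted p = 0.0368, edgeR) and Slc26a4 lower (-1.30, SE 0.28, adjusted p = 0.0361, edgeR), where 2.49% of 11348 genes passed. Of the 5 fits that each left out 1 library, Slc1a3 passed in 1 (without DMSO_d5 replicate 3) and Slc26a4 in 2 (without DMSO_d5 replicate 1 or DMSO_d10 replicate 1), and with all 10 libraries in one fit neither passed. By deposited name Slc1a3 was lower (-1.19, SE 0.31, adjusted p = 0.0299, edgeR), the opposite direction. Kcnj10 was also lower by deposited name (-2.43, SE 0.47, adjusted p = 0.0134, edgeR), and Atp1b1 was higher (1.46, SE 0.31, adjusted p = 0.0171, edgeR). In that grouping 18.7% of 10810 genes passed, and the 3 of 9 members are read against that background. Of the 5 fits that each left out 1 library, Kcnj10 passed in 4, Atp1b1 in 3 and Slc1a3 in 1 (without DMSO_d10 replicate 1), and Slc1a3 did not pass with the replicate number as a block (adjusted p = 0.0678, edgeR). Leaving out DMSO_d5 replicate 2 ended all 3 calls (adjusted p 0.0733 for Kcnj10, 0.0990 for Atp1b1 and 0.116 for Slc1a3, edgeR).

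TRULI_d10 against TRULI_d5 set withdrawal beside the compound's presence. By sample label none of the 9 passed, nor did any of 11444 genes (0%), with 347 at an unadjusted p under 0.05 in edgeR. By deposited name Slc1a3 was lower in TRULI_d10 (-2.17, SE 0.46, adjusted p = 0.0228, edgeR) and so was Kcnj10 (-1.43, SE 0.38, adjusted p = 0.0423, edgeR), where 14.1% of 11648 genes passed. Slc1a3 passed in 3 and Kcnj10 in 1 of the 5 fits that left out 1 library, and neither passed without the library deposited as TRULI_d5 replicate 2 (adjusted p 0.0914 and 0.154, edgeR) or without the one deposited as TRULI_d5 replicate 3. Under the deposited names each of the time comparisons also separated libraries of high and low mt-Rnr2 share.

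**Figure D3:**
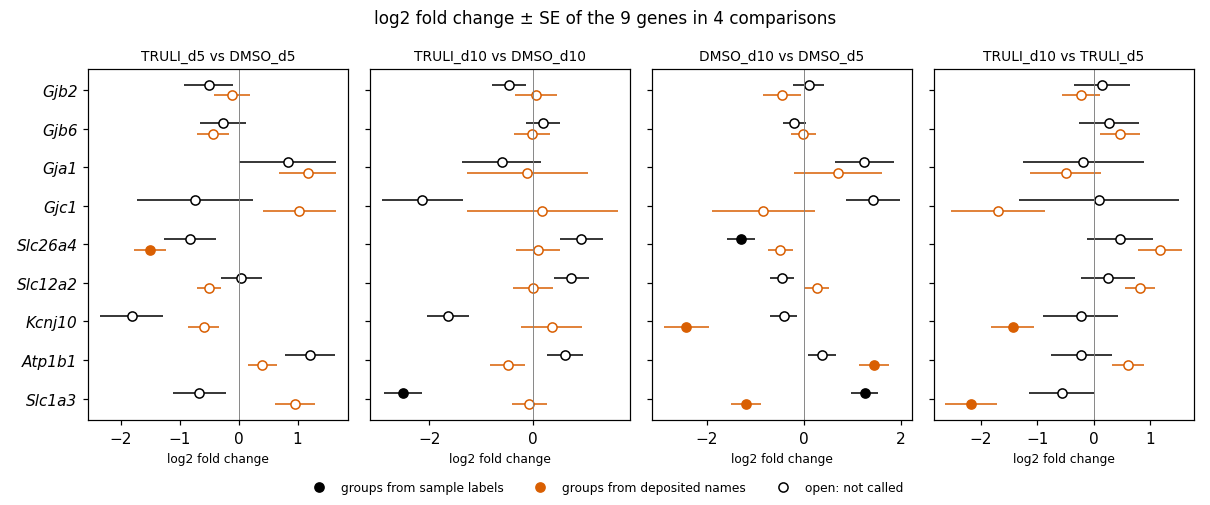
The log2 fold change of each of the 9 genes is plotted with its SE in 4 comparisons, in black with groups from the sample labels and in orange with groups from the deposited names, and filled points passed the test. Slc1a3 in DMSO_d10 against DMSO_d5 passed in opposite directions, 1.26 and -1.19.

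Atp1b1 (ENSMUSG00000026576, chr1:164437109-164458355, minus strand) encodes the beta subunit that carries the sodium-potassium pump to the membrane. It stood at 291, 265 and 468 CPM in DMSO_d5, at 975, 982 and 457 CPM in TRULI_d5, at 395 and 486 CPM in DMSO_d10 and at 569 and 835 CPM in TRULI_d10. The 4 libraries deposited as day 10 were the 4 highest. It overlaps Nme7 on the other strand, which reached 67.9 CPM, and the strand setting of the counting is not given in the sources used here. Atp1b1 supplied 45.6% to 75.2% of beta-subunit FPKM. It was above Atp1b3 and Atp1b2, the other beta subunits, in median level (257 FPKM, beside 106 and 36.6 FPKM). By sample label the share was 45.6% to 55.5% in DMSO_d5 and 68.5% to 75.2% in TRULI_d5, without overlap, and 56.8% and 61.3% in DMSO_d10 beside 71.1% and 74.8% in TRULI_d10. By deposited name it was 56.8% to 71.5% in TRULI_d5 and 68.5% and 75.2% in DMSO_d10. No test was run on the share. The 4 glial markers, led by Erbb3, summed to 1361 to 1897 CPM in the 4 libraries deposited as day 10 and to 361 to 717 CPM in the other 6. Their part in the result was not tested.

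**Figure D4:**
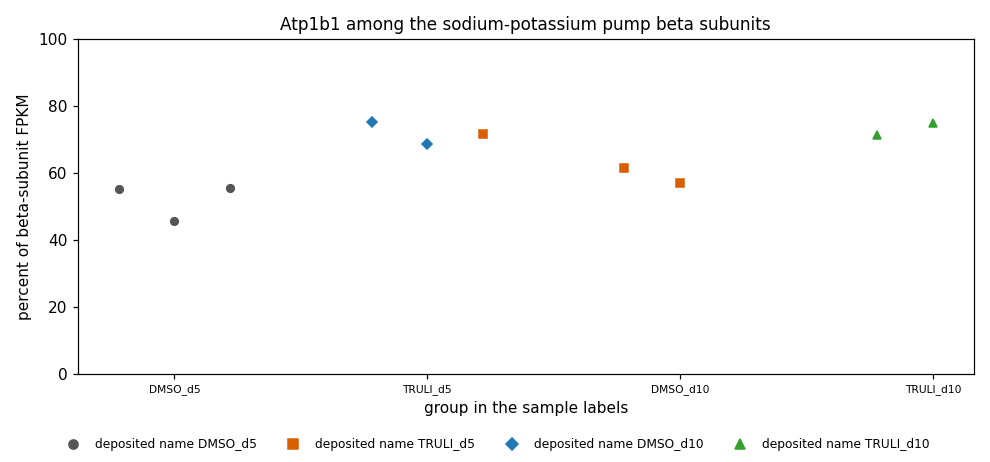
Atp1b1 is plotted as a percent of beta-subunit FPKM, from 0 to 100, in each of the 10 libraries, by group in the sample labels, with shape and color for the deposited name. All 5 TRULI libraries by label sit at 68.5% to 75.2%, above the 5 DMSO libraries at 45.6% to 61.3%. By deposited name DMSO_d10 sits at 75.2% and 68.5% and TRULI_d5 at 56.8% to 71.5%, so TRULI and DMSO libraries overlap.

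Slc12a2 (ENSMUSG00000024597, on chromosome 18) encodes NKCC1, which brings sodium, potassium and chloride into cells. It stood at 139, 130 and 116 CPM in DMSO_d5, at 168, 156 and 81.0 CPM in TRULI_d5, at 95.9 and 91.1 CPM in DMSO_d10 and at 164 and 161 CPM in TRULI_d10. The 3 libraries deposited as TRULI_d5 were the lowest of the 10, and the difference from DMSO_d5 in that grouping was -0.50 (SE 0.20, adjusted p = 0.239, edgeR). It passed the test in none of the comparisons. The potassium-chloride exporter Slc12a7 exceeded Slc12a2 in FPKM in every library, with Slc12a2 at 0.201 to 0.535 of its level. Slc12a7 was higher in the day-10 groups by deposited name, by 1.17 on the log2 scale in DMSO (adjusted p = 0.0187) and by 1.37 in TRULI (adjusted p = 0.0423), both by edgeR.

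The wider pathway was read from 93 further genes in 8 lists. The best-measured by median FPKM included the pump regulator Fxyd3 (112), the chloride exchanger Clcn3 (101), the scaffold Slc9a3r1 (130), the carbonic anhydrases Car2 (69.4), Car12 (31.6) and Car13 (28.6), the water channels Aqp4 (39.8), Aqp11 (7.82) and Aqp5 (4.38), and Kcnq1 (13.6). Glutamate is turned into glutamine by Glul (88.9 FPKM), and Slc12a9, a relative of the cotransporters, stood at 7.44 FPKM. By sample label 0 of 34 tested genes passed in TRULI_d5 against DMSO_d5, 0 of 43 in TRULI_d10 against DMSO_d10, 1 of 42 in DMSO_d10 against DMSO_d5 (Kcnk5, a pH-sensitive potassium channel, higher) and 0 of 45 in TRULI_d10 against TRULI_d5. Over all genes tested, the shares were 0.00945%, 2.05%, 2.49% and 0%. Kcnk5 stood at 5.01 and 11.1 CPM in DMSO_d10 and at 0 to 0.741 CPM in DMSO_d5. By deposited name 2 of 36 passed at 5 days (Kcnk5 higher and Kcnj16 lower), beside 3.09% of all genes tested, and 0 of 43 at day 10, beside 0%. In DMSO over time 3 of 39 were higher (Slc12a7, Ano1 and Car14) and 3 lower (Slc26a6, Panx1 and Kcnj16), beside 18.7% of all genes tested. In TRULI over time 4 of 44 were higher (Slc12a7, Glud1, Kcnk1 and Slc4a4) and 0 lower, beside 14.1% of all genes tested. Of these 4 genes, Kcnk1, a two-pore potassium channel, rose by 1.50 on the log2 scale (adjusted p = 0.0181, edgeR), and Slc4a4, a sodium bicarbonate cotransporter, rose by 1.19 (adjusted p = 0.0261, edgeR). Glud1, which breaks down glutamate, rose by 1.19 (adjusted p = 0.0404, edgeR). The median log2 fold change of the tested list genes in that comparison was 0.39, beside -0.01 for all genes tested. By sample label the same comparison gave 0.04, beside -0.02. The 0.39 was the largest such median, and the others ran from -0.07 (DMSO over time by label) to 0.29 (TRULI_d10 against DMSO_d10 by label). By deposited name that comparison also separated libraries of high and low mt-Rnr2 share.

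Levels of the members were also compared across the 10 libraries as a description, since the libraries share conditions and mt-Rnr2 share. Kcnj10 and Atp1b1 ran opposite to each other (Pearson r = -0.92 of log2(CPM + 1), n = 10), as did Slc12a2 and Slc1a3 (r = -0.84). Gjb6 ran with Slc26a4 (r = 0.70) and Slc12a2 (r = 0.69), and Gjb2 with Gjb6 less (r = 0.31). For the 3 members of highest mean CPM, the genes most like them were Lpo, Dis3l and Racgap1 for Slc1a3 (r = 0.97, 0.97 and 0.95), Rnf167, Mb21d2 and Slc35e1 for Atp1b1 (r = 0.98, 0.96 and 0.96), and Nptx1, Fstl1 and Prr36 for Gjb2 (r = 0.92, 0.89 and 0.88). These were the highest r among 8262 protein-coding genes with a mean CPM of at least 10, and a maximum over so many genes runs high.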

How the data were processed

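Supporting cells sorted from cultured mouse utricles gave 10 libraries. Per the study's methods reads were aligned by STAR (GRCm38). The authors deposited unnormalized expected counts for 48709 genes, laid out as RSEM output. The counting program is not given in the sources used here. The labels and the study's methods name different library kits. Members and lists were chosen with earlier results of these data known. Groups came from the sample labels, and from the deposited names as an alternative.

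Counts were rounded and tested with edgeR 4.0.16 in R 4.3.3 (filterByExpr, TMM, quasi-likelihood, 2 groups per fit, Benjamini-Hochberg over all genes tested), and protein-coding genes gave the background. SE was the log2 fold change divided by the root of F. FPKM came from effective lengths and protein-coding totals. Alternatives were DESeq2 1.42.0, its size factors in edgeR, all genes unfiltered, a single fit of all 10 libraries, no mitochondrially encoded genes, no fold threshold, the replicate block and leaving out each library. The code was tested on simulated data. The text names all 9 members, and of the pathway lists the genes that passed in any comparison and others among the 3 of highest median FPKM. Another 5 genes of the pathway lists are not reported here and enter no list count. The GGGCGG and TATAAA motifs were chosen after the data were seen. The labels do not say which libraries came from separate animals, so p-values measure the spread between these libraries.

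Pairing by replicate number was checked by correlating deviations from the group means. By deposited name at 5 days all 3 same-number pairs exceeded 0.1 (0.265 to 0.500). Deviations from a group mean cancel out within that group, so these 3 values are not independent. No source says what the number marks, so pairing was not established, and the main fits are unpaired. By sample label the same-number pairs at 5 days ran from -0.246 to 0.0590.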

Additional observations from a re-analysis of the deposited data

Results flagged for a closer look

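By sample label, Slc26a4 was lower in every TRULI_d5 library than in every DMSO_d5 library and higher in both TRULI_d10 libraries than in both DMSO_d10 libraries. The treatment effect after withdrawal minus that at 5 days was 1.76 on the log2 scale (SE 0.67, adjusted p = 0.660, edgeR with all 10 libraries), so the difference did not pass the test. By deposited name it was 1.61 (SE 0.48, adjusted p = 0.383), and 0 of 11918 genes passed in either grouping, with 792 at an unadjusted p under 0.05 by label and 1110 by deposited name. Slc26a4 was not alone, since by label the same contrast was larger in size for Slc1a3 (-1.82, SE 0.62, adjusted p = 0.653, edgeR). By deposited name the Slc1a3 contrast was -1.01 (SE 0.52, adjusted p = 0.563, edgeR). This contrast was chosen after the data were seen.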

How the results depend on the processing

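With groups from the deposited names, the members lower numbered 1 in TRULI_d5 against DMSO_d5 (0 by label), 0 in TRULI_d10 against DMSO_d10 (1 by label), 2 in DMSO_d10 against DMSO_d5 (1 by label) and 2 in TRULI_d10 against TRULI_d5 (0 by label). Between the groupings 15 of the 36 log2 fold changes (9 members in 4 comparisons) turned direction, among them Slc1a3 in DMSO_d10 against DMSO_d5 (-1.19), and in TRULI_d10 against DMSO_d10 Kcnj10 (0.36), Gjc1 (0.18) and Atp1b1 (0.61 by label, -0.49 by deposited name), and at 5 days Slc1a3 (-0.66 and 0.96), Gjc1 (-0.74 and 1.03) and Slc12a2 (0.04 and -0.50). By label, DESeq2 and no filter each called 1 member lower at 5 days and 2 after withdrawal, and all 10 libraries in one fit called 0 lower after withdrawal and 0 higher and 0 lower in DMSO over time. The replicate block gave 2 lower after withdrawal by label, and by deposited name 1 lower in each time comparison. At 5 days by deposited name Slc26a4 had a blocked log2 fold change of -1.57 (adjusted p = 0.00104, edgeR). Slc1a3 had a blocked 0.88 there (adjusted p = 0.0112, edgeR), under the fold threshold, beside an adjusted p of 0.186 unblocked. No call changed at 5 days by deposited name, and no source says what the replicate number marks. By deposited name, DESeq2 and all 10 libraries in one fit (chosen after the data were seen) each called 1 member higher, Slc26a4, in TRULI_d10 against TRULI_d5. Over fits leaving out 1 library by label, members higher and lower ran from 0 to 1 and from 0 to 2 at 5 days (both maxima without TRULI_d5 replicate 3), from 0 to 1 (maximum without TRULI_d10 replicate 2) and from 0 to 3 after withdrawal (maximum without TRULI_d10 replicate 1), and from 0 to 1 in each direction in DMSO over time. By deposited name they ran from 0 to 1 in each direction at 5 days, from 0 to 1 higher and 0 to 3 lower in DMSO over time, and from 0 to 2 lower in TRULI over time. Log2 fold changes after withdrawal by deposited name then ran from -0.21 to 1.30 for Kcnj10 and from -0.35 to 0.16 for Slc1a3. Where a group was left with 1 library, it was assumed to vary like the other group. Over all 9 members and 4 comparisons, 34 of 432 alternative values changed direction by label and 26 of 288 by deposited name. The 432 include the 36 values by deposited name, so the 34 also count the turns between the groupings given above. Of all these changes of direction, 1 belonged to a member that had passed the test, Slc1a3 above. Leaving out mitochondrially encoded genes, DESeq2's size factors in edgeR and no fold threshold left every count of members by label as it was. The causes were not tested. With 2 or 3 libraries a group, a missed threshold does not show that levels were alike, and Gja1 and Gjc1 were counted at most 33 and 56 times a library.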
